A study of Mus musculus with 12 samples.

Results

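The 37 genes described here encode enzymes of fatty acid oxidation and targets or partners of the nuclear receptor PPAR-alpha, and were taken from the gene table by their symbols. All 37 were among its 45777 genes, and all 37 passed the filter on low counts that left 18730 genes for testing. They fall into 20 mitochondrial genes, 9 peroxisomal genes and 8 regulators and other targets of PPAR-alpha. Their RNA was measured in whole kidneys of male wild-type C57BL/6 mice in 12 libraries, 3 per group. The normal group was given neither cisplatin nor vesicles. The other groups were all given cisplatin, a platinum drug toxic to the kidney tubule, at 9 mg/kg into the peritoneum weekly for 5 cycles. They then received 5 intravenous injections at intervals of 3 days. The PBS group received buffer, and the EV200 and EV400 groups received 200 and 400 µg of iMSC-EVs, the labels' abbreviation for the vesicles given. Kidneys were collected 3 days after the last injection. The labels state no age, no hour of collection, no cisplatin-free vesicle group, no injected normal group, and not whether each replicate was a separate mouse. The p-values therefore measure the spread between these samples only, and cisplatin cannot be told apart from the injections in a comparison with normal mice.

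Fatty acids enter the mitochondrion as carnitine esters and are shortened there by repeated rounds of dehydrogenation, hydration, a further dehydrogenation and thiolysis, while very long and branched chains are first shortened in peroxisomes. The electrons pass through the electron transfer flavoprotein to the respiratory chain, and the proximal tubule of the kidney draws much of its energy from this route. PPAR-alpha, bound by fatty acids, pairs with an RXR receptor on a direct repeat of the hexamer AGGTCA and raises transcription of many of these enzymes.

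Because the results concern genes thought to share this receptor, their RefSeq promoters (GRCm38.p6, 250 bases before to 50 after the listed start) were searched on both strands for direct repeat 1, that is AGGTCA, any base and AGGTCA again. RefSeq promoters were matched for 30 of the 37 genes, in 32 windows. No member window held the full motif, which 0.0396% of all 32851 promoters hold. With up to 2 mismatches over the 12 fixed bases, 4 of the 32 member windows held a match, or 12.5%, against 3.86% of all promoters. The single hexamer AGGTCA, part of the repeat, was in 6 member windows, or 18.8%, against 16.3% of all. A match is only a run of letters and no test was made of it. The 4 matches are shown 5′ to 3′ on their own strand, with capitals for bases equal to the motif.
Fabp1, chr6:71199812-71199824, minus strand, 67 to 55 bases before the start: AGGcCAtAGGTCA
Echs1, chr7:140116492-140116504, minus strand, 83 to 71 bases before the start: AGGTCAcgGGTCc
Etfa, chr9:55512308-55512320, plus strand, 77 to 65 bases before the start: AGGgCAaAGGTaA
Slc25a20, chr9:108662142-108662154, plus strand, 7 to 19 bases after the start: AGGTgAaAGGTCg

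The 4 members with the smallest joint p, Cpt1a, Eci2, Slc25a20 and Ppara, were also read over 275 bases ending 25 bases after the listed start. The windows of Eci2 and Ppara held neither the hexamer nor a match. Those of Cpt1a and Slc25a20 are printed in the direction of transcription, with capitals for the hexamer on the opposite strand in Cpt1a (94 to 89 bases before the start) and for the mismatched repeat in Slc25a20.
Cpt1a, chr19:3323051-3323325, plus strand: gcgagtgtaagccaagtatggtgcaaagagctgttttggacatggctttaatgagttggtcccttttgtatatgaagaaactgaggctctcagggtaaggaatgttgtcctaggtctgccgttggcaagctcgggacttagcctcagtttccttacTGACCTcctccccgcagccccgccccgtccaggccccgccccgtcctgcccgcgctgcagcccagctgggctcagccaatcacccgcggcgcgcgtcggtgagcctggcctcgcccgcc
Slc25a20, chr9:108661886-108662160, plus strand: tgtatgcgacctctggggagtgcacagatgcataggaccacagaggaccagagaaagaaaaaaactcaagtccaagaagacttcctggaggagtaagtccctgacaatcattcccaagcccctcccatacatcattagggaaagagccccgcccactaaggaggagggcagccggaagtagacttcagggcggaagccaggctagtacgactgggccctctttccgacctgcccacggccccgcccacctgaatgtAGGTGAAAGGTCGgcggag

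The genes were among the more abundant of the kidney. Their mean CPM, the count scaled to a common library size after the TMM factor, had a median of 174, against 10.2 over all genes tested, and 35 of 37 averaged at least 10 CPM, as did 50.3% of all genes tested. On the scale of TPM, transcript abundance corrected for length and depth, Acadm, the medium-chain acyl-CoA dehydrogenase, was highest in normal kidney at 648 ± 5.51 TPM (SD, n = 3). It stood above Scp2, the peroxisomal thiolase and lipid carrier (518 ± 15.9), Hadh, the short-chain hydroxyacyl-CoA dehydrogenase (511 ± 7.13), and Etfb, the beta subunit of the electron transfer flavoprotein (496 ± 20.8). These 3 followed each other within little more than their spread. Ehhadh, the peroxisomal bifunctional enzyme, had 389 ± 6.56 TPM. The lowest levels belonged to the PPAR-alpha targets Pdk4 (8.04 ± 2.75 TPM), Cyp4a14 (2.74 ± 0.944) and Fabp1, the liver fatty acid binding protein, at 1.43 ± 0.642 TPM and 8 to 36 counts per library. Ppara itself stood at 38.2 ± 2.95 TPM.

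**Figure D1:**
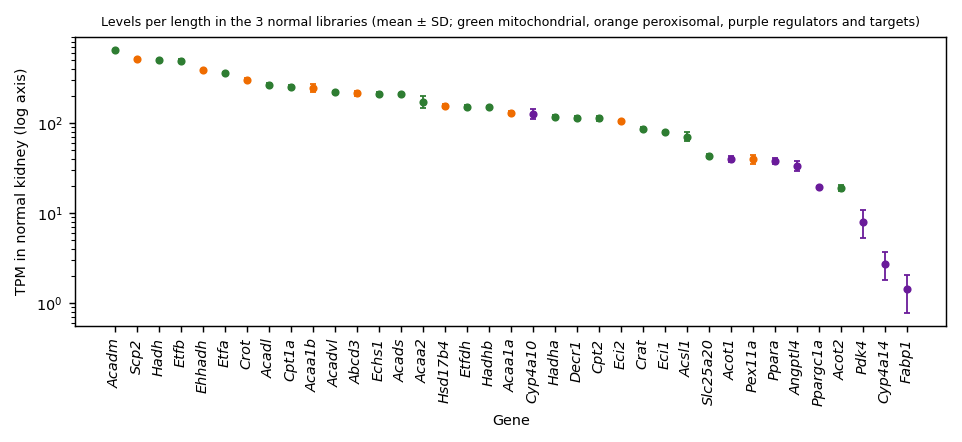
Mean TPM of each of the 37 genes in the 3 normal libraries, with bars of 1 SD, on a log axis; colours give the gene class. Most mitochondrial (green) and peroxisomal (orange) genes lie above the regulators and targets (purple), from Acadm at 648 TPM down to Fabp1 at 1.43 TPM.

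Libraries held 46.6 to 62.1 M counts, and TMM factors ran from 0.891 (EV400 3) to 1.12 (PBS 2). Several libraries stood apart from their groups over all genes: PBS 2 and EV200 3 at 83.4 and 60.5 on the first principal component, and EV400 3 at -52.1 and -51.5 on the first and second. Kidney identity was plain: all 21 proximal tubule markers were detected in every library, with Slc34a1, the phosphate transporter, at 3180 to 6660 CPM. Of 6 muscle markers none passed 0.145 CPM, and Ckm and Myh4 were at 0 in all 12 libraries. The 8 hepatocyte markers summed to 208 to 252 CPM in normal, 234 to 243 in PBS, 198 to 257 in EV200 and 209 to 363 in EV400 libraries, most of it Ttr (156 to 313 CPM), while Alb had 3.48 to 8.01 CPM and Ahsg was at 0 in 10 libraries. Of 12 adipocyte markers 11 were highest in PBS 3, Car3 being the exception (highest in normal 2), and Adipoq had 7.67 CPM there against 0 in 8 libraries. Their summed CPM ran from 58.2 to 95.1 in normal, 40.5 to 188 in PBS, 49.2 to 54.0 in EV200 and 43.2 to 53.5 in EV400 libraries. In bulk tissue, fewer cells of a type and less RNA per cell cannot be told apart.

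The first comparison asked how these genes stood after cisplatin without vesicles. Of the 37 genes, 32 were lower in PBS than in normal kidney and 5 higher, with a median log2 difference of -0.29 against 0.00 over all genes tested. No gene of the 37 passed the edgeR test at an adjusted p under 0.05, where 2.74% of all genes did; the nearest was Cpt1a, adjusted p = 0.0547. Before adjustment, 18 members were lower and 1 higher at p under 0.05, against 12.8% and 17.0% of all genes. Every PBS library lay below every normal library for 24 members, against 20.0% of all genes, and above for 1, against 20.3%. DESeq2 called 8 members, where it called 15.2% of all genes, and limma-voom with quality weights 16, where it called 32.9%. Both called Cyp4a14 higher, limma-voom also Acsl1, and the other calls were lower. The edgeR calls over all genes depended on single libraries: edgeR called 0.0% of genes without any 1 of the 3 normal libraries, 0.00527% without PBS 2, 0.413% without PBS 3 and 11.9% without PBS 1. Among members, it then called Cpt1a without PBS 3 and Acads and Cyp4a14 without PBS 1. The median difference of the members was -0.18 without PBS 2. Scaling by library totals or TPM moved the median of all genes by 0.17 and 0.18; the members' median stood -0.30 and -0.28 from it, and 32 of 37 stayed below the median gene on both scales, though only 30 and 27 were then lower in absolute terms. Library totals also changed the calls over all genes, from 345 higher and 169 lower to 463 higher and 78 lower.

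The 2 vesicle comparisons asked whether the dose groups differed from PBS; they share the PBS libraries, so their values and those against normal are not independent. With EV400, 31 of 37 genes were higher than with PBS, at a median log2 difference of 0.25 against -0.03 over all genes. None of the 37 was called by edgeR, where 0.0801% of genes were, and the smallest adjusted p was 0.128, of Cpt1a. Before adjustment 16 were higher and 1 lower, against 10.9% and 12.6% of genes, and 13 had all EV400 libraries above all PBS libraries, against 12.2%, with 2 below, against 13.8%. DESeq2 called 5 members (5.36% of all genes) and limma-voom 5 (14.6%). The DESeq2 calls were all higher with EV400. Limma-voom called Echs1, Cpt1a and Slc25a20 higher, but Acsl1 (-0.387) and Acot1 (-0.365) lower. With EV200, 33 genes were higher than with PBS, but the median was smaller, at 0.15, and only 2 were higher and 1 lower before adjustment, against 3.83% and 3.08% of genes; 1 gene, Hadha, lay wholly above PBS and 1, Acsl1, wholly below, against 5.53% and 4.94% of genes. EdgeR called none of the members (0.016% of genes), with adjusted p from 0.657 to 0.995, DESeq2 none (0.256%) and limma-voom 2 (8.8%). Of these 2, Ppara was higher and Acsl1 lower with EV200. PBS 2 carried part of both medians, which without it were 0.15 for EV400 and 0.06 for EV200. With EV200, 26 genes were higher than with PBS both by library totals and by TPM. By library totals and TPM, 24 and 20 genes were higher with EV400 than with PBS, and the members' median stood 0.28 and 0.26 above that of all genes.

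Directly compared, EV400 stood above EV200 for 28 of 37 genes at a median of 0.09 with TMM factors, though by TPM for only 12, at -0.047, and by library totals for 23, at 0.008, with none called by edgeR (0.00534% of genes), DESeq2 (0.0908%) or limma-voom (0.774%), and none under 0.05 before adjustment (2.53% of genes higher and 3.81% lower). In CPM, Cpt1a and Ehhadh had all EV400 libraries above all EV200 libraries, against 5.1% of genes, and no member had them all below, against 5.57%. That median was 0.00 without EV400 3 and 0.02 without EV200 3, so no difference between doses was detectable at this replication. Against normal kidney, 30 genes were lower with EV200, at a median of -0.15, and 19 had all libraries below all normal libraries, against 12.9% of genes, with 1 above, Cyp4a14, against 11.9%. By library totals and TPM, 23 genes were lower with EV200. The EV200 median was -0.07 without EV200 3 and -0.09 without normal 3. With EV400, 17 genes were higher and 20 lower than in normal kidney (19 and 18 by library totals, 11 and 26 by TPM), at a median of -0.02, and 1 had all libraries below, Ppargc1a, against 10.6% of genes, and none all above, against 8.28%. EdgeR called no member in either (0.0694% and 0.0% of genes), where 1 was lower and 1 higher with EV200 before adjustment (4.32% and 8.86% of genes) and none with EV400 (3.67% and 3.31%). DESeq2 called 1 with EV200 (2.62% of genes) and 0 with EV400 (0.187%), and limma-voom 1 in each (5.86% and 7.91%). A joint edgeR test of any difference among the 4 groups called 0 members (0.0641% of genes), with 9 at an unadjusted p under 0.05, where 19.7% of genes were, and adjusted p from 0.16 to 0.796; DESeq2 called 4 (9.22%) and limma-voom 15 (35.4%).

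**Figure D2:**
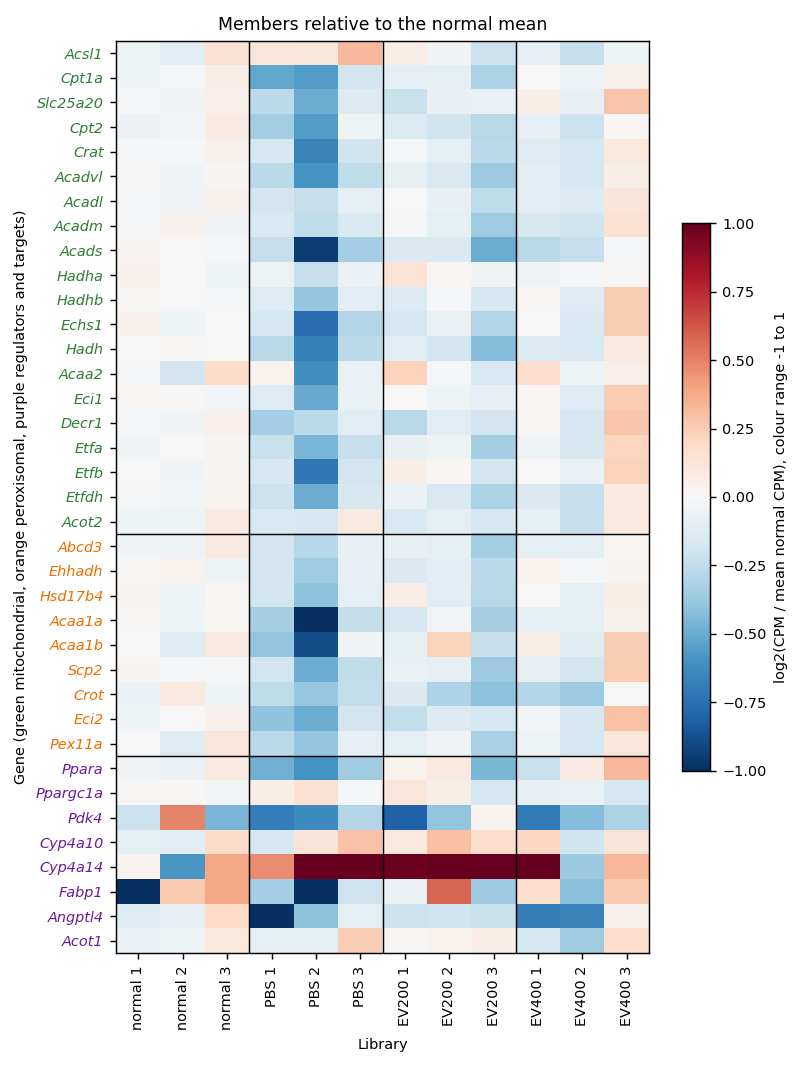
Each gene (rows) in each library (columns) as log2 of its CPM over the mean normal CPM, with colours limited to -1 to 1 so that stronger values look alike. Blue is lower than normal: the PBS columns are mostly blue, deepest in PBS 2, EV200 3 is bluer than EV200 1 and 2, and EV400 3 is mostly red, while Cyp4a14 is red in all PBS and EV200 libraries.

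**Figure D3:**
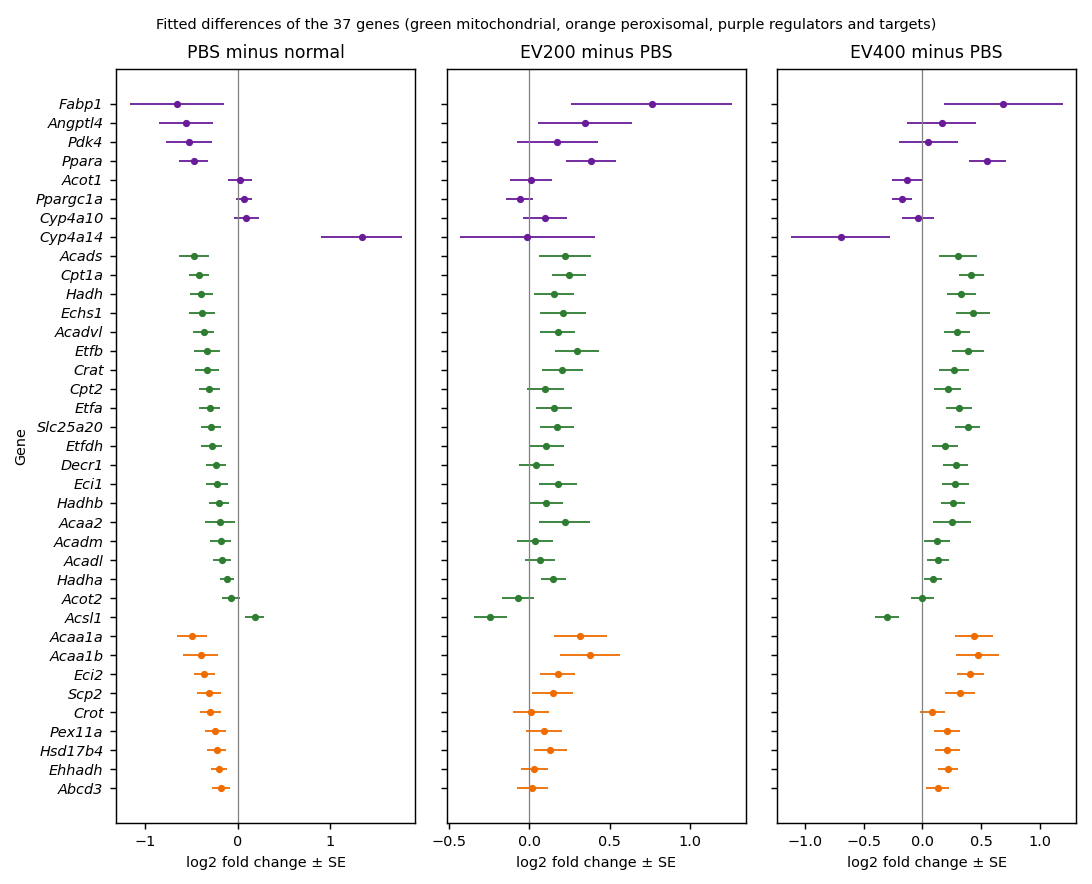
Fitted log2 fold changes with bars of 1 SE for the 37 genes in 3 comparisons, coloured by class; the horizontal scales of the panels differ. With TMM factors all peroxisomal genes (orange) are left of 0 in PBS minus normal and right of 0 in EV400 minus PBS (by TPM 8 and 5 of 9 are), and the regulators and targets (purple) lie on both sides.

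By class, the mitochondrial genes had a median of -0.29 in PBS against normal, with 19 of 20 lower and 16 wholly below normal, as 20.0% of all genes were. The peroxisomal genes had the same median of -0.29, with 9 of 9 lower and 7 apart. The regulators and other targets were split, 4 lower and 4 higher, at a median of -0.22, with Ppara apart below and Cyp4a14 apart above. Against PBS, EV400 gave medians of 0.28, 0.22 and 0.01 for the mitochondrial, peroxisomal and regulator classes, and EV200 gave 0.15, 0.13 and 0.14. EV400 stood above PBS in 18 of 20 mitochondrial and 9 of 9 peroxisomal genes, but in 4 of 8 regulators and targets. These counts hold for TMM factors: by library totals they were 15, 7 and 2, and by TPM 13, 5 and 2, where the median of all genes was -0.17 and -0.23 against -0.03. The difference between classes was not tested. Mitochondrial and peroxisomal medians lay close together in each library, and those of the regulators and targets were less regular.

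**Figure D4:**
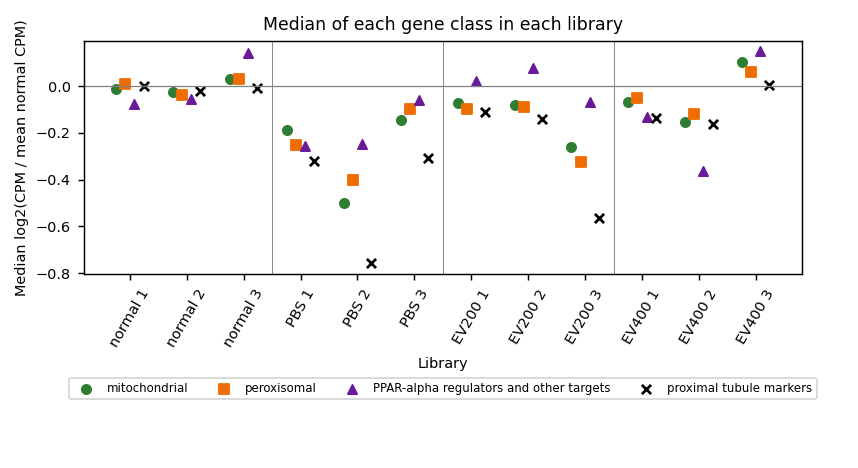
Median log2 ratio to the normal mean for each gene class and for 21 proximal tubule markers, by library. Mitochondrial and peroxisomal medians are lowest in PBS 2 (-0.50 and -0.40), and the tubule markers (crosses) are lowest in the same library (-0.76) and next lowest in EV200 3 (-0.56).

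Proximal tubule markers moved broadly with these medians, macrophage and fibroblast markers moved broadly against them, and other lists differed from both. The summed CPM of all members was 8728 to 8941 in normal, 6500 to 7960 in PBS, 7192 to 8429 in EV200 and 7974 to 9561 in EV400 libraries. The lowest PBS and EV200 sums were those of PBS 2 and EV200 3, and the highest CPM sum of all was that of EV400 3. By summed TPM, however, EV400 3 had 6287, below the 6462 to 6908 of the normal libraries. PBS 2 and EV200 3 were still the lowest of their groups by TPM, at 5764 and 6249. The proximal tubule markers had medians of -0.32, -0.76 and -0.31 relative to normal in PBS 1, 2 and 3, -0.11, -0.14 and -0.56 in EV200 and -0.14, -0.16 and 0.00 in EV400. Of these 21 markers, 20 were lower in PBS than in normal kidney at a median of -0.47, 3 of them called. With EV400, 20 were higher than with PBS at a median of 0.37, none called. Their summed TPM was 17170, 12620 and 16800 in PBS and 17860, 18410 and 16000 in EV400 libraries, which overlapped. One of the 21, Slc27a2, also belongs to the uptake genes described further on. Summed macrophage markers, such as C1qa and Csf1r, ran from 268 to 372 CPM in normal, 597 to 1141 in PBS, 366 to 1025 in EV200 and 271 to 515 in EV400 libraries, all 10 being higher in PBS than in normal and 4 called. Summed fibroblast and matrix markers ran from 198 to 211, 299 to 812, 193 to 504 and 134 to 308 CPM, with the same extremes at PBS 2, EV200 3 and EV400 3; all 10 were higher in PBS and 2 were called. Loop and distal tubule markers, such as Umod and Slc12a1, went another way: 8 of 10 were higher in PBS than in normal, 3 of them called, at a median of 0.38, and all 10 were higher than normal with EV200 (0.41) and EV400 (0.24), none called. Their medians by library were 0.56, -0.016 and 0.29 in PBS 1, 2 and 3. By summed TPM, EV400 1, 2 and 3 had 2562, 3005 and 2080, against 2091 to 2213 in normal libraries. On that scale EV400 3 lay below normal. Clock genes also differed, 6 of 16 called lower and 1 higher in PBS than in normal. By library the clock medians were -0.76, -0.39 and -0.22 in PBS 1, 2 and 3. Those of EV200 were -0.065, 0.003 and -0.035, and those of EV400 -0.084, 0.20 and 0.21. In EV400 against PBS, 3 clock genes were called higher and 2 lower, where edgeR called 0.0801% of all genes. In EV200 against PBS no clock gene was called. Before adjustment, 8 were higher and 4 lower with EV200, against 3.83% and 3.08% of all genes. The counts of higher and lower genes in these lists hold for TMM factors. The calls are from edgeR, which called 2.74% of all genes in PBS against normal. Without any 1 normal library it called 0.0% of genes, and without PBS 2 0.00527%. The part of cell composition, and of the hour of collection, in the values of the fatty acid genes was not tested.

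Among the genes of activation and the carnitine shuttle, Cpt1a, the outer-membrane carnitine palmitoyltransferase that admits long chains to the mitochondrion, differed most clearly. It is gene 12894 of the table, at chr19:3322326-3385735 of GRCm38.p6. Cpt1a read 621, 632 and 664 CPM in normal, 445, 434 and 560 in PBS, 601, 596 and 512 in EV200 and 638, 618 and 662 in EV400 libraries. All PBS libraries were below all normal and all EV400 libraries, whereas EV200 3 fell within the PBS range. The log2 difference was -0.41 ± 0.11 (SE) in PBS against normal, and 0.25 ± 0.11 and 0.41 ± 0.11 for EV200 and EV400 against PBS, with edgeR adjusted p of 0.0547, 0.657 and 0.128. EV400 against normal gave 0.00 ± 0.11. DESeq2 called Cpt1a in PBS against normal (adjusted p = 0.00382) and in EV400 against PBS (adjusted p = 0.00655).

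Slc25a20, the carrier that exchanges acylcarnitine for carnitine across the inner membrane, read 44.6, 44.1 and 46.6 CPM in normal and 37.5, 32 and 41 in PBS libraries. It read 38.6, 42.9 and 43.1 in EV200 and 47.0, 42.7 and 54.8 in EV400 libraries. PBS lay wholly below normal and EV400, with differences of -0.29 ± 0.11 (adjusted p = 0.104) and 0.39 ± 0.11 (adjusted p = 0.134), and EV200 wholly below normal. Without PBS 2 the first difference of Slc25a20 was -0.19. Acsl1, a long-chain acyl-CoA synthetase at the head of the pathway, went the other way. It read 158, 152 and 182 CPM in normal, 178, 177 and 205 in PBS, 172, 160 and 141 in EV200 and 155, 140 and 159 in EV400 libraries. Both vesicle groups lay wholly below PBS, with log2 differences of -0.24 ± 0.10 and -0.30 ± 0.10 (adjusted p = 0.657 and 0.159), while PBS and normal overlapped (0.19 ± 0.10, adjusted p = 0.242). Without PBS 3 the last of these was 0.11. Limma-voom called Acsl1 in all 3 comparisons (adjusted p = 0.0362, 0.0141 and 0.0127). With TMM factors Acsl1 was the only mitochondrial gene higher in PBS than in normal, but by library totals 3 and by TPM 5 were. The inner-membrane transferase Cpt2 (-0.30 ± 0.12) overlapped normal, and the carnitine acetyltransferase Crat (-0.33 ± 0.13) lay below it, with adjusted p = 0.114 for both.

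In the mitochondrial spiral, with TMM factors, all 9 genes were lower in PBS than in normal, from -0.11 (Hadha) to -0.47 (Acads). All 9 were then higher with EV400 than with PBS, from 0.09 to 0.43. By mean TPM, however, Acadl, Acadm and Hadha were higher in PBS (274, 652 and 126) than in normal (270, 648 and 119). With EV400 these genes were lower than with PBS, at 257, 606 and 115 TPM. The other spiral genes kept both directions by TPM. Acadvl, the very long-chain acyl-CoA dehydrogenase, read 288, 277 and 291 CPM in normal, 237, 188 and 239 in PBS, 271, 256 and 222 in EV200 and 263, 253 and 297 in EV400 libraries. PBS lay wholly below normal and EV400, with differences of -0.37 ± 0.11 (adjusted p = 0.0685) for PBS against normal and 0.29 ± 0.11 (adjusted p = 0.173) for EV400 against PBS. Hadh read 539, 545 and 538 CPM in normal, 447, 339 and 450 in PBS, 500, 476 and 400 in EV200 and 493, 486 and 576 in EV400 libraries. The 3 normal libraries were tight, PBS 2 was the lowest of all and EV200 3 next. Its differences were -0.39 ± 0.12 for PBS against normal (adjusted p = 0.0756) and 0.33 ± 0.12 for EV400 against PBS (adjusted p = 0.172); the former was -0.26 without PBS 2.

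Echs1, the short-chain enoyl-CoA hydratase whose promoter match is shown above, read 194, 183 and 189 CPM in normal, 167, 111 and 154 in PBS, 168, 180 and 154 in EV200 and 189, 169 and 225 in EV400 libraries. PBS lay below normal and EV400 but overlapped EV200. The differences were -0.39 ± 0.14 (adjusted p = 0.106) and 0.43 ± 0.14 (adjusted p = 0.158) for PBS against normal and EV400 against PBS, the former -0.22 without PBS 2. Acads, the short-chain acyl-CoA dehydrogenase, had the spiral's largest difference in PBS, -0.47 ± 0.16 (adjusted p = 0.0901), and PBS 2 was the lowest, at 121 CPM against 200 and 185 in PBS 1 and 3. The medium- and long-chain dehydrogenases Acadm and Acadl differed less, at -0.18 ± 0.11 and -0.17 ± 0.09. Hadha and Hadhb, the subunits of the trifunctional protein, are neighbours on chromosome 5 in opposite directions, and gave -0.11 ± 0.08 and -0.20 ± 0.11. Acaa2, the mitochondrial thiolase, overlapped normal (-0.19 ± 0.16). The auxiliary enzymes for unsaturated chains, Eci1 and Decr1, gave -0.22 ± 0.12 and -0.23 ± 0.11 in PBS against normal, and 0.28 ± 0.12 and 0.28 ± 0.11 in EV400 against PBS.

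The 3 genes that pass electrons to the respiratory chain were alike in CPM, each wholly below normal in PBS. Etfb read 266, 259 and 271 CPM in normal, 237, 162 and 234 in PBS, 276, 269 and 234 in EV200 and 265, 253 and 311 in EV400 libraries. EV200 and EV400 libraries thus overlapped normal, and PBS 2 was far below the rest. Its differences were -0.33 ± 0.14 in PBS against normal (adjusted p = 0.136; -0.16 without PBS 2) and 0.39 ± 0.14 in EV400 against PBS (adjusted p = 0.164). Etfa, the alpha subunit, and Etfdh, the ubiquinone oxidoreductase, gave -0.30 ± 0.11 and -0.28 ± 0.11 in PBS against normal. In EV400 against PBS they gave 0.31 ± 0.11 and 0.19 ± 0.11. By mean TPM, Etfdh was lower with EV400 (140) than with PBS (143), while Etfa and Etfb were higher. Acot2, the mitochondrial acyl-CoA thioesterase, did not share this pattern. It read 24, 23.9 and 26.3 CPM in normal, 22.3, 22.1 and 26.3 in PBS, 22.3, 23.1 and 22.0 in EV200 and 23.1, 21.1 and 26.5 in EV400 libraries, and PBS overlapped the other groups (-0.07 ± 0.10 against normal, adjusted p = 0.664).

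With TMM factors the genes of the peroxisomal spiral were all lower in PBS than in normal (by TPM 8 of 9 peroxisomal genes were), with the largest differences in the thiolases Acaa1a and Acaa1b. Acaa1a, a peroxisomal 3-ketoacyl-CoA thiolase, read 136, 131 and 137 CPM in normal, 107, 66.1 and 114 in PBS, 120, 132 and 107 in EV200 and 126, 126 and 139 in EV400 libraries. All PBS libraries were below all normal and EV400 libraries, and PBS 2 was the lowest by a wide margin. The differences were -0.49 ± 0.16 (adjusted p = 0.0829) for PBS against normal, and 0.32 ± 0.16 and 0.44 ± 0.16 (adjusted p = 0.657 and 0.169) for EV200 and EV400 against PBS. Its near-identical neighbour on chromosome 9, Acaa1b, read 225, 206 and 240 CPM in normal, 170, 121 and 218 in PBS, 209, 261 and 191 in EV200 and 233, 206 and 266 in EV400 libraries. For Acaa1b, PBS 3 reached the normal range, so the groups overlapped. How reads were divided between such copies is not given in the sources used here; summed, the pair gave -0.43 ± 0.18 (adjusted p = 0.13) and 0.46 ± 0.18 (adjusted p = 0.177) for PBS against normal and EV400 against PBS. Leaving out PBS 2 brought the differences of Acaa1a and Acaa1b from normal to -0.27 and -0.19.

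Eci2, the peroxisomal isomerase for unsaturated chains, was the member with the second smallest joint p. It read 99, 102 and 105 CPM in normal, 77.0, 72.3 and 89.0 in PBS, 86.0, 92.7 and 90.4 in EV200 and 100, 91.3 and 125 in EV400 libraries. PBS lay wholly below normal and EV400, and EV200 wholly below normal. The differences were -0.36 ± 0.11 (adjusted p = 0.0733) in PBS against normal and 0.41 ± 0.11 (adjusted p = 0.133) in EV400 against PBS. Ehhadh, a textbook PPAR-alpha target, read 691, 703 and 661 CPM in normal, 600.0, 537 and 652 in PBS, 619, 636 and 573 in EV200 and 703, 680.0 and 698 in EV400 libraries. EV400 lay wholly above both PBS and EV200, and PBS wholly below normal, but the differences were small, at -0.20 ± 0.09 (adjusted p = 0.147; -0.12 without PBS 2) against normal and 0.22 ± 0.09 (adjusted p = 0.182) for EV400 against PBS. By TPM, Ehhadh had 389 ± 6.56 in normal, 387 ± 27.4 in PBS, 372 ± 0.78 in EV200 and 388 ± 40.8 in EV400 libraries (SD). On that scale the PBS mean was thus close to those of normal and EV400. Hsd17b4, the D-bifunctional protein, and Scp2 gave -0.23 ± 0.10 and -0.31 ± 0.13 in PBS against normal.

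Crot, which makes carnitine esters of the shortened chains for export, differed from the spiral genes. It read 489, 542 and 493 CPM in normal, 426, 390.0 and 428 in PBS, 460.0, 411 and 383 in EV200 and 414, 395 and 509 in EV400 libraries. PBS and EV200 lay wholly below normal, and EV400 1 and 2 stayed within the PBS range. Against PBS the differences were 0.01 ± 0.11 and 0.09 ± 0.11 for EV200 and EV400 (adjusted p = 0.975 and 0.641), after -0.29 ± 0.11 for PBS against normal (adjusted p = 0.106). The importer of acyl-CoA Abcd3 and the division factor Pex11a gave -0.18 ± 0.10 and -0.24 ± 0.11 in PBS against normal, with 0.13 ± 0.10 and 0.21 ± 0.11 in EV400 against PBS.

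Of the regulators, Ppara, the receptor gene at chr15:85734910-85806851, read 157, 154 and 171 CPM in normal, 115, 106 and 126 in PBS, 165, 172 and 117 in EV200 and 138, 170.0 and 202 in EV400 libraries. All PBS libraries were below all normal and EV400 libraries; EV200 1 and 2 stood with normal and EV200 3 with PBS. The differences were -0.47 ± 0.16 in PBS against normal, and 0.39 ± 0.16 and 0.55 ± 0.16 in EV200 and EV400 against PBS, with adjusted p of 0.0832, 0.657 and 0.137. DESeq2 called the first and the last, at adjusted p = 0.0319 and 0.02. Ppargc1a, the coactivator PGC-1alpha, differed less between groups. It read 75.9, 75.9 and 73.5 CPM in normal, 78.7, 83.6 and 74.1 in PBS, 81.5, 78.2 and 66.9 in EV200 and 70.9, 71.6 and 66.9 in EV400 libraries. Its PBS and normal values overlapped (0.07 ± 0.08, adjusted p = 0.6), and EV400 lay below both groups by small margins (-0.17 ± 0.08 against PBS, adjusted p = 0.22).

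Targets of PPAR-alpha outside the oxidation pathway did not share a direction. Cyp4a14, a fatty acid omega-hydroxylase at chr4:115486200-115496158, read 4.11, 2.67 and 5.23 CPM in normal, 5.55, 10.4 and 14.3 in PBS, 7.91, 10.5 and 11.6 in EV200 and 10.6, 3.09 and 5.03 in EV400 libraries. Every PBS and EV200 library was above every normal library, PBS 1 only just, while EV400 1 stood with PBS and EV400 2 and 3 with normal. The differences were 1.34 ± 0.43 in PBS against normal (adjusted p = 0.08), -0.01 ± 0.42 in EV200 against PBS (adjusted p = 0.995) and -0.70 ± 0.42 in EV400 against PBS (adjusted p = 0.311). DESeq2 called the first (adjusted p = 0.0147). Its neighbour on chromosome 4, Cyp4a10, of the same enzyme family, read 148, 146 and 178 CPM in normal, 139, 172 and 192 in PBS, 169, 193 and 177 in EV200 and 181, 137 and 172 in EV400 libraries. All 4 groups overlapped, with 0.09 ± 0.14 in PBS against normal (adjusted p = 0.67), and summing Cyp4a10 with its close copies Cyp4a31 and Cyp4a32 gave -0.05 ± 0.11.

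Pdk4, the kinase that shuts pyruvate dehydrogenase when fat is burned, varied widely within the normal group. It read 14.2, 23.3 and 12.0 CPM in normal, 10.3, 10.6 and 13.5 in PBS, 9.43, 12.6 and 16.9 in EV200 and 10.2, 12.2 and 13.3 in EV400 libraries. The groups overlapped, and the fitted difference of -0.52 ± 0.25 in PBS against normal (adjusted p = 0.182) was -0.18 without normal 2 (adjusted p = 0.646). Angptl4, a secreted inhibitor of lipoprotein lipase, read 34.8, 36.0 and 43.4 CPM in normal, 12.9, 28.8 and 35.6 in PBS, 32.9, 33.1 and 32.6 in EV200 and 23.6, 24 and 39.2 in EV400 libraries. Only PBS 1 was far below normal, and PBS 3 lay within the normal range, with a difference of -0.56 ± 0.29 (adjusted p = 0.217) that was -0.24 without PBS 1 and -0.87 without PBS 3. Angptl4 is also made by adipocytes, of whose 12 markers 11 were highest in PBS 3; their part was not tested.

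Acot1, the cytosolic thioesterase next to Acot2 on chromosome 12, read 35.6, 35.9 and 39.8 CPM in normal, 34.7, 34.8 and 43.9 in PBS, 37.3, 37.9 and 38.9 in EV200 and 32.8, 29.0 and 41.7 in EV400 libraries. Its groups overlapped (0.03 ± 0.13 in PBS against normal, adjusted p = 0.91), as did the sum of Acot1 and Acot2, which are alike in sequence (-0.01 ± 0.12, adjusted p = 0.96). Limma-voom called Acot1 lower with EV400 than with PBS (-0.365, adjusted p = 0.0236) and in the joint test (adjusted p = 0.0295). Fabp1 read 0.219, 0.534 and 0.581 CPM in normal, 0.352, 0.116 and 0.385 in PBS, 0.427, 0.665 and 0.346 in EV200 and 0.501, 0.332 and 0.533 in EV400 libraries. Its groups overlapped, and at 8 to 36 counts per library the difference of -0.66 ± 0.51 (adjusted p = 0.398) was within its error.

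**Figure D5:**
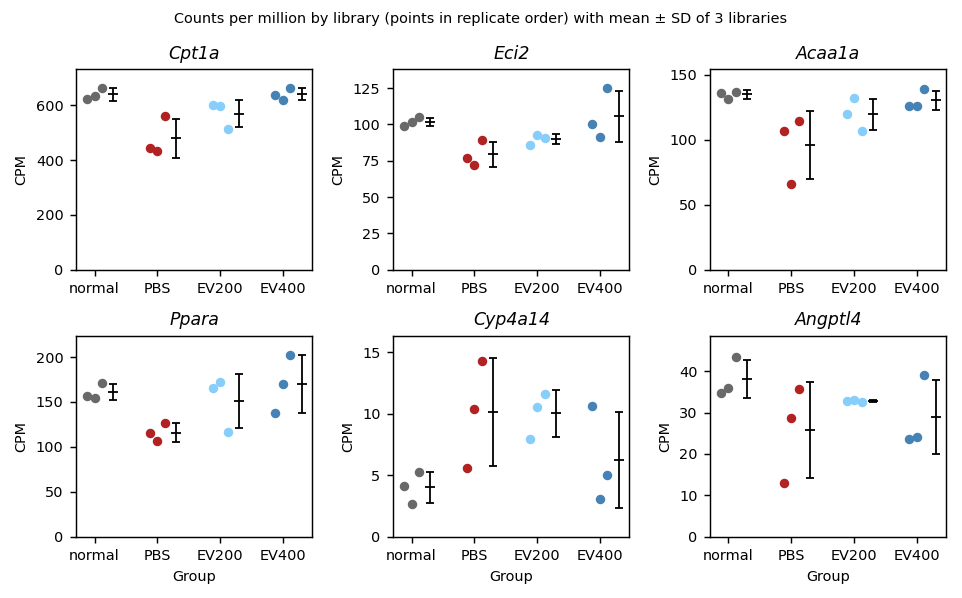
CPM of 6 members in each library (points) with the mean and SD of 3 libraries (bars), each panel from 0. Cpt1a, Eci2, Acaa1a and Ppara have all PBS points below all normal and EV400 points, Cyp4a14 has all PBS points above normal, and Angptl4 is spread from 12.9 to 35.6 CPM in PBS.

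Genes of the same pathway outside the 37 gave similar medians. Of 41 other oxidation enzymes, all tested, 32 were lower in PBS than in normal at a median of -0.30, and 2 fell by the edgeR test, where 2.74% of genes were called. Amacr, the racemase that readies branched chains for the peroxisome, read 394, 394 and 421 CPM in normal and 285, 197 and 285 in PBS (-0.66 ± 0.15, adjusted p = 0.0471). Slc22a5, the plasma membrane carnitine transporter, read 331, 312 and 326 CPM in normal and 215, 175 and 261 in PBS (-0.57 ± 0.13, adjusted p = 0.0471). All PBS libraries were below all normal libraries for both genes. With TMM factors, 33 of the 41 were higher with EV400 than with PBS, at a median of 0.25, and 31 with EV200, at 0.14. None was called by edgeR in either. Before adjustment 15 and 3 were higher, against 10.9% and 3.83% of genes, and 2 and 0 lower, against 12.6% and 3.08%. The summed TPM of the 41 was 5288, 5146 and 5360 in normal and 4930, 4148 and 4932 in PBS libraries. It was 4947, 4895 and 4744 in EV400 libraries. On that scale PBS stayed below normal, while EV400 overlapped PBS.

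Of 30 uptake, storage and ketone genes, 28 were tested, of which 19 were lower in PBS than in normal, at a median of -0.26. The edgeR test called 2 lower and 1 higher, where it called 2.74% of all genes. Cyp4a12a and Cyp4a12b, omega-hydroxylases typical of the male mouse kidney, fell. Cyp4a12a read 418, 404 and 353 CPM in normal and 215, 162 and 181 in PBS (-1.07 ± 0.18), and Cyp4a12b 73.2, 68.7 and 63.6 against 43.5, 34.0 and 39.3 (-0.82 ± 0.13), both with adjusted p = 0.0321. These 2 genes are close copies, so reads may be shared between them. Ucp2, a mitochondrial carrier, rose from 43.9, 38.3 and 43.2 CPM to 59.6, 78.3 and 75.0 (0.76 ± 0.16, adjusted p = 0.0436). Cd36 and Slc27a2, which take up fatty acids, narrowly missed the threshold, at -0.40 ± 0.10 (adjusted p = 0.0503) and -0.53 ± 0.13 (adjusted p = 0.0518), each with PBS wholly below normal. The droplet protein gene Plin2 gave -0.27 ± 0.11 (adjusted p = 0.125). None of the 28 was called by edgeR with EV200 or EV400 against PBS, where 4 and 11 were higher and 1 and 3 lower before adjustment, against 3.83% and 10.9% of genes higher and 3.08% and 12.6% lower. In edgeR without any 1 normal library or PBS 2, none of the calls of Amacr, Slc22a5, Cyp4a12a, Cyp4a12b and Ucp2 held, and without PBS 3 only that of Slc22a5 did; their adjusted p reached at most 0.158 over all alternatives.

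Of 26 nuclear receptors and coactivators, 15 were lower in PBS than in normal at a median of -0.11. None was called by edgeR, where 2.74% of all genes were. Before adjustment 9 were lower and 3 higher, against 12.8% and 17.0% of all genes. Hnf4a, a receptor of tubule and liver identity, gave -0.37 ± 0.15 (adjusted p = 0.128). Rxra, the partner of PPAR-alpha, gave -0.29 ± 0.13 (adjusted p = 0.159), and Esrra, which drives mitochondrial genes, -0.48 ± 0.18 (adjusted p = 0.106). Every PBS library was below every normal library for these 3 genes, as for 11 of the 26, against 20.0% of all genes. For 4 of the 26 every PBS library was above, against 20.3%. The list was thus split, with 11 genes higher in PBS than in normal, by up to 0.957. With EV400 against PBS the list had a median of -0.03 and 15 of 26 genes lower, none called, where 0.0801% of all genes were. Before adjustment 2 were higher and 6 lower, against 10.9% and 12.6% of all genes.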

How the data were processed

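Whole-kidney RNA from 12 mouse samples was sequenced as stranded mRNA libraries in paired reads, per the labels' protocols, which give 1 batch. FastQC 0.11.7, Trimmomatic 0.38, HISAT2 2.1.0, StringTie 2.1.3b and the builds GRCm38 and mm10 come from the submitters' processing notes. Not given in the sources used here were the program that counted reads, its strand setting, the annotation and how reads of near-identical genes were shared. One deposited table held, for 45777 genes, read counts in whole numbers beside TPM and FPKM columns. The deposited counts were used for every test, the deposited TPM only for levels per length and as a scale, and the 12 FPKM columns were not used. Of the gene IDs, 45679 matched the RefSeq table of GRCm38.p6, the source of coordinates and promoters.

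The quasi-likelihood test of edgeR 4.0.16 (R 4.3.3) was run on the counts of all 12 libraries together, with TMM factors, the group-wise default filter and 8 degrees of freedom left. P-values were adjusted by Benjamini-Hochberg over all 18730 genes tested, and a gene was called at an adjusted p under 0.05. The script was tested on simulated data. Alternatives were DESeq2 1.42.0 size factors and test, limma 3.58.1 voom with quality weights, no filter or at least 1 CPM in 3 libraries, only the groups compared, the replicate number as a block, near-identical genes summed and each library left out; 2 were added after seeing the data, library totals as the scale and PBS 3, EV200 3 and EV400 3 left out together. Depth was 46.6 to 62.1 M counts. The 37 members and all lists were chosen with earlier results of these data known. Values in every library are given for Ppara, Ppargc1a, Cpt1a, the pairs of similar sequence, and in each class the 3 members with the smallest p in each of the 3 main comparisons (21 genes); other members are given by their difference.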

Additional observations from a re-analysis of the deposited data

How the results depend on the processing

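Of 951 alternative values of the 21 members described by library, 853 kept their direction and their side of the threshold, 42 passed the threshold only under the alternative and 56 had the other sign. Genes called in PBS against normal numbered 514, but 299 without a filter, 819 with at least 1 CPM in 3 libraries, 2855 by DESeq2, 6164 by limma-voom, 0 with the replicate block, 1449 from only the groups compared, and 2319 with PBS 3, EV200 3 and EV400 3 left out together. For EV200 against PBS (3 genes) the counts were 48 by DESeq2, 1649 by limma-voom, 0 with the replicate block, 0 from only the groups compared and 9 with the 3 libraries left out. For EV400 against PBS (15 genes) they were 1004, 2731, 10 with the block, 2 from only the groups compared and 8 by library totals, with 9 higher and 6 lower calls by TMM and 2 and 6 by library totals. For EV400 against EV200 (1 gene) they were 17 by DESeq2, 145 by limma-voom, and 0 with the stricter filter, the replicate block, only the groups compared or the 3 libraries left out. For EV200 against normal (13 genes) they were 26 with the stricter filter, 491, 1098, 6 with the block, 28 from only the groups compared, 1 with the 3 libraries left out and 27 by library totals, where 18 were higher and 9 lower against 6 and 7 by TMM. For EV400 against normal (0 genes) they were 35, 1481 and 6 with the 3 libraries left out. Leaving out 1 library at a time gave 0 to 2277 genes for PBS against normal, 1 to 6 for EV200 and 0 to 26 for EV400 against PBS, 1 for EV400 against EV200, 2 to 58 for EV200 against normal and 0 for EV400 against normal. In PBS against normal, 8 members were called by DESeq2 (15.2% of all genes) and 16 by limma-voom (32.9%). The stricter filter called 1, Cpt1a (5.51%), only the groups compared 1, Ppara (8.04%), and 3 libraries left out 11 (12.3%). With 1 library left out, 0 to 2 members were called in PBS against normal (0.0% to 11.9%). In EV200 against PBS limma-voom called 2 members (8.8%). DESeq2 and limma-voom called 5 and 5 in EV400 against PBS (5.36% and 14.6%). They called 1 and 1 in EV200 against normal (2.62% and 5.86%). In EV400 against normal limma-voom called 1 (7.91%). The joint test called 4 by DESeq2 (9.22%), 15 by limma-voom (35.4%) and 1 with the 3 libraries left out (1.63%). The members' median in PBS against normal ran from -0.34 to -0.18 with 1 library left out, and was -0.15 by limma-voom, which gave PBS 2 a weight of 0.163 and PBS 3 one of 3.47, and -0.13 by library totals. For EV400 against PBS it ran from 0.15 to 0.34, and was 0.10 by limma-voom and 0.11 by library totals; for EV200 against PBS from 0.06 to 0.22; for EV400 against EV200 from 0.00 to 0.15, and -0.048 with the 3 libraries left out; for EV200 against normal from -0.17 to -0.07; for EV400 against normal from -0.07 to 0.02. Samples of the same number were not treated as paired in the main test. Of 18 same-numbered pairs 2 correlated over 0.1, with r from -0.39 to 0.34, while PBS 2 and EV200 3, of unlike number, reached 0.49. With 3 libraries per group such correlations cannot show whether samples were paired. The replicate block called no member. The log2 differences of these genes, all uncalled in edgeR, turned sign. In PBS against normal they were Acot2 (0.045 by limma-voom, 0.097 by library totals), Cyp4a10 (-0.016 with the 3 left out, -0.045 summed with its copies, -0.018 to 0.21 with 1 left out) and Acot1 (-0.094 with the 3 left out, -0.011 summed with Acot2, -0.096 to 0.094 with 1 left out). In EV200 against PBS they were Acot2 (0.033 with the 3 left out, -0.11 to 0.019 with 1 left out), Ehhadh (-0.023 by limma-voom, -0.033 by library totals, -0.034 to 0.10 with 1 left out), Crot (-0.033 by limma-voom, -0.056 by library totals, -0.059 to 0.072 with 1 left out), Ppargc1a (0.053 by limma-voom, -0.11 to 0.021 with 1 left out), Pdk4 (-0.074 by limma-voom, -0.059 to 0.36 with 1 left out), Cyp4a14 (0.006 with the replicate block, 0.20 with the 3 left out, -0.30 to 0.33 with 1 left out), Acot1 (-0.15 by limma-voom, -0.053 by library totals, -0.020 summed with Acot2, -0.047 to 0.13 with 1 left out) and Cyp4a10 (-0.019 to 0.21 with 1 left out). In EV400 against PBS they were Acot2 (0.001 by DESeq2 size factors and without a filter and by DESeq2, 0.007 from only the groups compared, -0.082 to 0.088 with 1 left out), Crot (-0.030 by limma-voom, -0.011 with the 3 left out, -0.069 by library totals, -0.024 to 0.16 with 1 left out), Pdk4 (-0.26 by limma-voom, -0.099 by library totals, -0.024 to 0.19 with 1 left out), Cyp4a10 (0.033 with the 3 left out, -0.16 to 0.072 with 1 left out) and Angptl4 (-0.31 by limma-voom, -0.007 by library totals, -0.15 to 0.47 with 1 left out). The cause of these shifts was not tested. Depth limited Fabp1, at 8 to 36 counts per library.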
